A study of Mus musculus with 2 samples.

Results

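The cells described here are the liver sinusoidal endothelial cells (LSECs) in which the scavenger receptor gene *Msr1* was detected and the receptor gene *Kit* was not. They were selected on their own transcript counts. A *Msr1*+*Kit*- cell held at least 4 unique molecular identifiers (UMIs, each standing for 1 captured transcript) summed over the 7 sinusoidal genes *Clec4g*, *Flt4*, *Kdr*, *Gpr182*, *Oit3*, *Dnase1l3* and *Ptprb*. It also held at most 3 UMIs of the Kupffer cell genes *Clec4f* and *Cd5l*, at least 1 UMI of *Msr1*, and no UMI of *Kit*, of *Bmp4*, *Edn1*, *Fbln2*, *Adgrg6* and *Ednrb*, or of the lymphocyte genes *Cd79a* and *Cd3e*. This rule found 606 cells among the 7919 cells kept from the series, of which 286 of 3710 came from the NASH library and 320 of 4209 from the control library. Nonparenchymal cells had been taken from livers of male C57BL/6 mice that were 8 weeks old at the start of the diet. For 6 weeks the mice were fed a methionine- and choline-deficient (MCD) diet, which leads to steatohepatitis (NASH), or a chow diet as control. The cells of 3 mice were pooled for each diet and captured in 1 library on the BD Rhapsody platform, so there is no replicate library, no test between diets and no p-value. No transgene, Cre driver or cell line is involved.

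LSECs line the hepatic sinusoid, the capillary that carries blood across the lobule, with the portal vein and hepatic artery at one end and the central vein at the other. They are perforated by fenestrae without a diaphragm, and they clear modified proteins, lipoproteins and other waste from blood through scavenger receptors. *Msr1* encodes the class A macrophage scavenger receptor, which binds acetylated and oxidized low density lipoprotein, and *Kit* is a tyrosine kinase receptor whose ligand is stem cell factor. *Efnb2* encodes ephrin-B2, a membrane ligand of Eph receptors that is known from arterial endothelium, and *Dll4* encodes a Notch ligand of arterial endothelium and of sprouting tip cells. *Chst2* encodes a sulfotransferase that acts on N-acetylglucosamine, and *Enpep* the membrane enzyme glutamyl aminopeptidase, which acts on angiotensin II.

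Over the 16383 genes analysed, which run alphabetically up to *Rad54l2*, the median kept cell had 1654 UMIs in the NASH library and 1683 UMIs in the control library. Of the kept cell labels 21 occurred in both libraries, and *Msr1*+*Kit*- cells carried 0 of them in NASH and 2 in control. The NASH table has no gene names of its own and was read in the column order of the control table. Across genes, the summed counts of the libraries had a Spearman correlation of 0.96 in this order, and of 0.469 and 0.468 when shifted by 1 column either way. A level below adds up the gene's UMIs in all cells of a class and gives them per 1000000 UMIs of those cells (counts per 1000000, CPM), and brackets hold the 95% interval for counting error only, which does not cover the spread between mice.

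The label of the cells held for most but not all of them. In the NASH library the 7 sinusoidal genes took a median of 3.6% of a *Msr1*+*Kit*- cell's UMIs, against 4.31% in the control library, but the cells fell into separate groups with few between them. The 7 genes made up under 1% of the UMIs in 58 of the 286 NASH and in 9 of the 320 control cells. Only 11 NASH and 5 control cells lay between 0.3% and 1.4%. These 58 NASH cells were deep, with a median of 4925.5 UMIs, and held 50.2% of all UMIs of the NASH *Msr1*+*Kit*- cells, while the 9 control cells held 7.97%.

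**Figure D1:**
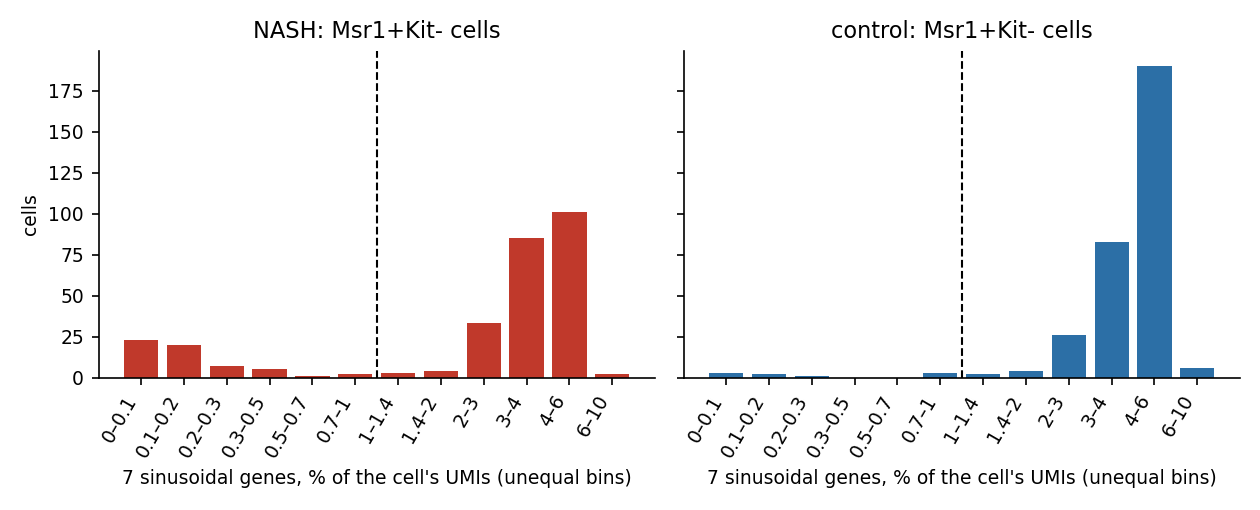
Number of *Msr1*+*Kit*- cells (vertical axis) by the percentage of the cell's UMIs that came from the 7 sinusoidal genes (horizontal axis, bins of unequal width), in the NASH (left) and the control library (right). The dashed line marks 1%, below which lie 58 NASH and 9 control cells.

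The 58 NASH cells carried genes of macrophages. *Lyz2*, the lysozyme of myeloid cells, was at 15029 CPM in these 58 cells and at 393 CPM in the other 228 NASH cells. *Lgals3*, which encodes galectin-3, was at 4404 CPM in these 58 cells and at 77.2 CPM in the other 228 NASH cells, and *Cybb*, a subunit of the phagocyte NADPH oxidase, at 4254 CPM in these 58 cells and at 117 CPM in the other 228 NASH cells. *Gpnmb*, a glycoprotein of lipid-laden macrophages, was at 1335 CPM in these 58 cells and at 20.1 CPM in the other 228 NASH cells. The 22 genes of a Kupffer cell and macrophage list summed to more UMIs than the 7 sinusoidal genes in all 58 of them, and in 4 of the other 228. In the control library this held for 6 of the 9 cells and for 3 of the other 311. By the rule, the list summed to 27230.4 CPM in NASH and 5627 CPM in control *Msr1*+*Kit*- cells, with 0 of the 22 genes at 0 in either library. Without the cells under 1% the sums were 3638 and 3224 CPM, beside 2935 and 3067 CPM in the *Kit*+*Msr1*- cells and 83326.5 and 84908 CPM in Kupffer cells, in NASH and control in each case. Results are therefore given for the 228 NASH and 311 control cells with at least 1%, called the restricted members here, and beside them by the rule where the value changed. This limit was chosen after the data had been seen.

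At the edge of the rule, the cells with a 7-gene sum of 4 UMIs numbered 19 in NASH and 1 in control, and those with a sum of 3, just outside, 26 and 5. Their median macrophage list counts were 233 UMIs inside and 230 UMIs outside in NASH. Cells just inside the limit on *Msr1*, with 1 UMI of it, numbered 150 in NASH and 126 in control and had *Efnb2* at 230.1 and 248 CPM. Cells without a *Msr1* UMI that met the rest of the rule, just outside, numbered 639 and 280 and had *Efnb2* at 117 and 123 CPM.

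The *Msr1*+*Kit*- cells took a smaller part of the sinusoidal cells in NASH than in control. Among sinusoidal cells by the rule they made up 18.5% (16.6 to 20.6) in NASH, or 286 of 1544, and 26.3% (23.8 to 28.8) in control, or 320 of 1218. Among those with at least 1% of the 7 genes the shares were 16.9% (14.9 to 19) and 26.8% (24.3 to 29.5). A UMI of *Msr1* or *Kit* is missed more often in a shallow cell. The restricted members held a median of 1172.5 UMIs in NASH and 1622 in control. Cells with at least 1000 UMIs were therefore also thinned to 1000 UMIs and the rule applied again. Shallower cells were left out, which were 497 of 1349 NASH and 279 of 1160 control sinusoidal cells with at least 1% of the 7 genes. Some cells passed the rule only after thinning, so the cells compared changed along with the depth. The shares were then 14.4% (12.2 to 16.7), or 138 of 961 cells, in NASH and 29.9% (27.0 to 32.9), or 287 of 959 cells, in control. The *Kit*+*Msr1*- cells took 35.9% (32.9 to 39.0) in NASH and 31.8% (28.9 to 34.9) in control at the same depth, with overlapping intervals. The cells with neither receptor took 44.6% (41.5 to 47.8) and 30.0% (27.1 to 33.0), and those with both 5.10% (3.80 to 6.69) and 8.24% (6.58 to 10.2). Shares depend on which cells were captured, and each diet has a single pool of mice.

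**Figure D2:**
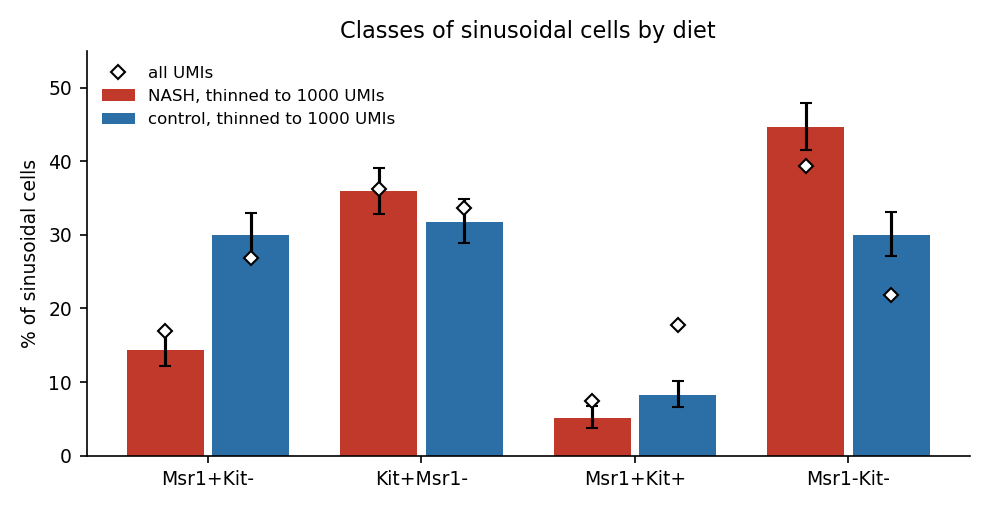
Percentage of sinusoidal cells with the 7 genes at 1% or more (vertical axis) in each class of *Msr1* and *Kit* detection, in NASH (red) and control (blue). Bars show cells of at least 1000 UMIs thinned to that depth, with exact binomial 95% intervals, and diamonds all cells at full depth. The *Msr1*+*Kit*- class is at 14.4% in NASH and 29.9% in control after thinning.

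*Msr1* (chromosome 8, 39581685 to 39642673, minus strand, GRCm38) was read over all sinusoidal cells as well, where its level did not enter the choice. With the 7 genes at 1% or more it was at 287 (263 to 313) CPM in NASH and 707 (671 to 743) CPM in control. At 1000 UMIs a UMI of *Msr1* was found in 20.2% (17.5 to 23) of the NASH and 38.6% (35.4 to 41.9) of the control sinusoidal cells. In B cells, which should lack it, the shares were 3.39% (0.931 to 8.45) and 2.46% (1.23 to 4.35), at median depths of 1117 and 1129.5 UMIs before thinning. Sinusoidal *Msr1* thus lay well above this background in both libraries and was lower in NASH. *Kit* (chromosome 5, 75574916 to 75656722, plus strand) was at 615 (580.1 to 652) CPM in NASH and 758 (721 to 796) CPM in control sinusoidal cells. The 101 NASH cells with both receptors were chosen on a UMI of each, so their levels are a description only. These cells had 746 (628 to 880.2) CPM of *Msr1* and 1000.4 (863 to 1154) CPM of *Kit*.

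Within the restricted members, *Msr1* was read at 1 UMI in 59.2% of the NASH and 39.2% of the control cells. At least 6 UMIs were found in 4 of 228 NASH and 41 of 311 control cells, and the highest cell held 8 in NASH and 20 in control. The summed level was 1329 (1201 to 1467) CPM in NASH and 1595 (1494 to 1702) CPM in control members, a description only, since *Msr1* chose them. Other cells carried *Msr1* as well. Kupffer cells had 860.0 (770.4 to 957) and 1099.6 (1028 to 1175) CPM, and the endothelial cells gated on *Adgrg6* and *Ednrb* 1292 (1092 to 1518) and 1960.1 (1689.9 to 2261) CPM. Endothelial cells gated on the venous genes *Bmp4*, *Edn1* and *Fbln2* had 38.7 (23.3 to 60.5) and 103 (56.3 to 173) CPM, in NASH and control in each case.

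Of the 4 genes named with *Msr1* for these cells, *Efnb2*, *Dll4* and *Chst2* were higher in *Msr1*+*Kit*- than in *Kit*+*Msr1*- cells of both libraries, while *Enpep* was not. These values are a description, since the counts of *Msr1* and *Kit* set the classes and the 4 genes were named from these same cells. *Efnb2* (chromosome 8, 8617434 to 8661242, minus strand) was at 413 (343 to 493) CPM in *Msr1*+*Kit*- and 115 (92.5 to 142) CPM in *Kit*+*Msr1*- cells of the NASH library. In the control library the levels were 311 (267 to 360.1) and 95.5 (74.3 to 121) CPM. The log2 ratios were 1.84 (1.44 to 2.25) in NASH and 1.70 (1.30 to 2.13) in control, which are 3.58-fold and 3.24-fold. The cells with neither receptor lay between at 199.9 (166 to 239) CPM in NASH and 168 (127 to 218) CPM in control. *Efnb2* was highest in the *Adgrg6* cells, at 559 (430.3 to 714) and 573 (432 to 746) CPM, and at 24.5 (12.6 to 42.7) and 36.8 (11.9 to 85.9) CPM in venous cells. At 1000 UMIs it was detected in 30% (22.6 to 38.3) of *Msr1*+*Kit*- and 9.12% (6.36 to 12.6) of *Kit*+*Msr1*- cells in NASH, and in 24.9% (19.7 to 30.8) and 9.15% (6.17 to 13) in control. In B cells the shares were 0% (0 to 3.08) in NASH and 0.446% (0.0541 to 1.60) in control.

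*Dll4* (chromosome 2, 119325784 to 119335962, plus strand) was at 624 (538 to 721) CPM in *Msr1*+*Kit*- and 276 (239.9 to 315) CPM in *Kit*+*Msr1*- cells in NASH. It was at 455 (401 to 513) and 183 (153 to 217) CPM in control, and the log2 ratios were 1.18 (0.89 to 1.47) in NASH and 1.31 (1.01 to 1.63) in control. The shares of cells with a *Dll4* UMI at 1000 UMIs were 47.9% (39.3 to 56.5) of *Msr1*+*Kit*- and 22.1% (17.9 to 26.7) of *Kit*+*Msr1*- cells in NASH, and 34.5% (28.6 to 40.8) and 15.4% (11.5 to 19.9) in control. The intervals of the *Dll4* ratios overlapped between the libraries. In the *Adgrg6* cells *Dll4* was at 751 (601 to 927) CPM in NASH and 563 (423 to 735) CPM in control. *Chst2* (chromosome 9, 95399292 to 95406722, minus strand) was at 319 (258 to 389.8) and 208 (177 to 243) CPM in NASH and at 465 (411 to 524) and 201 (169 to 236) CPM in control. Its ratios were 0.62 (0.23 to 0.99) in NASH and 1.21 (0.92 to 1.51) in control, and the NASH ratio was 0.41 with the cells thinned to 1000 UMIs and 0.57 with each cell weighted equally, under the limit of 0.58 that 1.5 times sets. *Enpep* (chromosome 3, 129269175 to 129332720, minus strand) was at 218 (168 to 278) and 168 (141 to 199.8) CPM in NASH and 296 (253 to 343) and 296 (258 to 339) CPM in control, with ratios of 0.38 (-0.078 to 0.81) in NASH and -0.0022 (-0.30 to 0.29) in control. *Enpep* therefore set the *Msr1*+*Kit*- cells apart from the *Kit*+*Msr1*- cells in neither library, although both were above the 59.1 (39.6 to 84.9) and 80.9 (40.4 to 145) CPM of venous cells. With all members of the rule, the NASH ratios were 1.11 for *Efnb2*, 0.52 for *Dll4* and -0.028 for *Chst2*, and the control ratios 1.84, 1.43 and 1.35.

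Across all genes, those at 1.5 times or more in the same direction in both libraries were counted among genes with at least 50 UMIs over both classes in each library, the genes of the rule left out. With the restricted members 59 of 3608 genes (1.64%) were higher and 72 (2%) lower in *Msr1*+*Kit*- than in *Kit*+*Msr1*- cells. In 46 of the 59 and 55 of the 72 the intervals of both libraries lay on one side of 0. By the rule, 66 of 4353 (1.52%) were higher and 112 (2.57%) lower, and 20 of the higher and 50 of the lower genes were called in both sets. The rule's 12 leading higher genes were *Fcgr4*, *Cybb*, *Lpl*, *C3*, *Cx3cr1*, *C1qa*, *Axl*, *Fcgr3*, *C1qb*, *Ctsc*, *Ms4a6b* and *Rab20*. Several of them are genes of macrophages, such as the Fc receptors *Fcgr3* and *Fcgr4* and the complement chains *C1qa* and *C1qb*. *Cx3cr1*, the fractalkine receptor, was at 567 (508 to 630.2) CPM in *Msr1*+*Kit*- and 8.43 (3.64 to 16.6) CPM in *Kit*+*Msr1*- cells in NASH, and at 62.0 (44.1 to 84.8) and 17.4 (9.71 to 28.6) CPM in control. Of the 12, only *Cybb* was among the 12 leading genes of the restricted members, with 37.1% of its UMIs in 1 NASH and 66% in 1 control cell, and its control ratio was -0.93 with the 7 genes at 1.5% or more.

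The other 11 leading genes of the restricted members were *Mecom*, *Efnb2*, *Efnb1*, *Ntn4*, *Mbd4*, *Lama4*, *Dll4*, *Galnt15*, *Efna1*, *Il1a* and *Nt5c3*, and no cell held more than 8.51% of the UMIs of any of these in a library's members. *Mecom*, a zinc finger transcription factor, was at 124 (87.4 to 171) CPM in *Msr1*+*Kit*- and 37.5 (25.1 to 53.9) CPM in *Kit*+*Msr1*- cells in NASH and at 173 (141 to 210.2) and 26.3 (15.8 to 41.1) CPM in control. *Ntn4*, a secreted netrin of basement membranes, was at 2034 (1875 to 2202) and 773 (712 to 837) CPM in NASH and 2527 (2399 to 2660.1) and 696 (637 to 759.8) CPM in control. Its control ratio of 1.86 lay above the NASH ratio of 1.4, with intervals apart. *Lama4*, a laminin chain of endothelial basement membrane, had ratios of 1.2 (0.81 to 1.58) in NASH and 1.4 (1.06 to 1.75) in control, and *Galnt15*, an enzyme that starts O-linked glycans, of 1.17 (0.67 to 1.67) in NASH and 1.91 (1.49 to 2.36) in control. *Il1a*, the cytokine interleukin-1 alpha, had ratios of 1.36 (0.90 to 1.81) in NASH and 1.08 (0.65 to 1.53) in control. *Mbd4*, a DNA repair glycosylase, and *Nt5c3*, a nucleotidase, had ratios of 1.47 in NASH and 1.34 in control and of 1.02 in NASH and 1.00 in control.

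Of 4 ephrin and Eph receptor genes measured, 3 were higher and 0 lower in the restricted members, where 1.64% of all genes were higher, and all 3 are ligands. By the rule 2 of the 4 were higher. *Efnb1* and *Efnb2* are marker genes of the published *Msr1* cluster, chosen on these samples, so the count is not independent evidence. *Efnb1*, which encodes ephrin-B1, was at 352 (288 to 427) CPM in *Msr1*+*Kit*- and 84.1 (64.9 to 107) CPM in *Kit*+*Msr1*- cells in NASH. In control it was at 339 (293 to 389.7) and 118 (94.0 to 145) CPM, giving ratios of 2.06 (1.61 to 2.54) in NASH and 1.52 (1.15 to 1.91) in control. *Efna1*, the membrane-anchored ephrin-A1, had ratios of 1.12 (0.63 to 1.61) in NASH and 1.11 (0.68 to 1.57) in control. *Ephb4*, the receptor known as the venous partner of ephrin-B2, had ratios of -0.33 (-0.54 to -0.12) in NASH and -0.26 (-0.45 to -0.082) in control and was not called. The promoters of both B-class ligands, 250 bases before to 50 after the start, are shown because these genes were higher together, with the core motif TGGGAA of the Notch effector RBPJ, searched on both strands, in capitals. The sequences are from RefSeq, build GRCm38.p6, 5′ to 3′ on the strand of the gene. *Efnb1* lies at chrX:99135811-99136110 on the plus strand and *Efnb2* at chr8:8661193-8661492 on the minus strand.
Efnb1: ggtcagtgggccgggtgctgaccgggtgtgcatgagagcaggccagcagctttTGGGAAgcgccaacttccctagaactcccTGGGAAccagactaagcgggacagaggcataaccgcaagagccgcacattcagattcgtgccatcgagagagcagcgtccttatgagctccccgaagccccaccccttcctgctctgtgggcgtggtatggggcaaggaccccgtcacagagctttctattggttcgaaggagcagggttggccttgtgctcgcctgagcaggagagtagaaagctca
Efnb2: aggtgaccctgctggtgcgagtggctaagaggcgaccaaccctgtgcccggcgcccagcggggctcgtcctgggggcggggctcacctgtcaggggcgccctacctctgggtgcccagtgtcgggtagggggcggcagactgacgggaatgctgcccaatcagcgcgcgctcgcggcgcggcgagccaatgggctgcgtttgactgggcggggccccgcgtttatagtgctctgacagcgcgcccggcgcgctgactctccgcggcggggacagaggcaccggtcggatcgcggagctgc
The motif occurred 2 times in the *Efnb1* window, and its letters are not in the *Efnb2* window. The share of all 32851 promoters of this length that held it on either strand was 25.6%, and a match is a description of letters only.

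The wider Notch pathway was split. Of its 21 genes measured, 4 were higher in *Msr1*+*Kit*- than in *Kit*+*Msr1*- cells and 1 was lower, beside 1.64% and 2% of all genes, with medians of 0.063 in NASH and 0.10 in control beside 0.0046 and -0.017 over all genes. *Dll4*, 1 of the 4, is a marker gene of the published *Msr1* cluster, chosen on these samples, so the count is not independent evidence. Besides the ligand *Dll4*, the targets *Hes1*, a transcriptional repressor, and *Nrarp*, a feedback inhibitor, were higher, with ratios of 0.78 (0.48 to 1.07) in NASH and 1.19 (0.93 to 1.46) in control and of 0.79 (0.30 to 1.27) in NASH and 0.89 (0.25 to 1.55) in control. In cells with no UMI of 9 macrophage genes the NASH ratio of *Hes1* was -0.096. *Mfng*, one of the fringe enzymes that glycosylate Notch, had ratios of 0.78 (0.071 to 1.46) in NASH and 0.88 (0.12 to 1.68) in control. *Lfng*, another fringe enzyme, went the opposite way, at 148 (107 to 198) CPM in *Msr1*+*Kit*- and 506 (457 to 559) CPM in *Kit*+*Msr1*- cells in NASH and 102 (77.6 to 132) and 371 (328 to 418) CPM in control. The receptors *Notch1* and *Notch4* were not called, with ratios of 0.23 in NASH and 0.15 in control and of 0.054 in NASH and 0.31 in control. By the rule, 0 of 23 measured pathway genes were higher and 1 was lower.

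Of 13 genes listed for the portal side of the sinusoid 10 were higher and 0 lower in the restricted members, where 1.64% of all genes were higher and 2% lower. By the rule 4 of the 13 were higher and 0 lower, beside 1.52% and 2.57% of all genes. Of the 8 measured marker genes of the published *Msr1* cluster 7 were higher in the restricted members and 3 by the rule. These markers and most of the portal list were chosen on these samples, so no such count is independent evidence of its direction. *Ltbp4*, which holds latent TGF-beta in the matrix, was at 2399.7 (2227 to 2582) CPM in *Msr1*+*Kit*- and 1225 (1148 to 1305) CPM in *Kit*+*Msr1*- cells in NASH and at 2085 (1969 to 2206) and 706 (646 to 769.9) CPM in control. *Cd36*, a fatty acid and scavenger receptor, was at 3031 (2836 to 3235) and 1930.2 (1833 to 2031) CPM in NASH and at 2671 (2539 to 2807) and 958 (888 to 1032) CPM in control. The listed genes that were not called were *Enpep*, *Adgrg1* and *Myzap*, with *Adgrg1* at 0.57 in NASH and 0.014 in control and *Myzap* at 0.30 in NASH and 0.60 in control. Other lists gave fewer calls. Among basement membrane and elastic fibre genes 3 of 14 were higher (*Lama4*, *Ltbp4* and *Ntn4*) and 1 lower, *Bgn*, which encodes biglycan, while by the rule 1 of 14 was higher and 1 lower. *Lama4* is a published *Msr1* cluster marker chosen on these samples, so the count of 3 is not independent evidence either. Among cytokine, chemokine and adhesion genes 4 of 19 were higher in the restricted members and also by the rule, with 0 lower. The chemokine genes *Ccl5* and *Cxcl10*, both called higher in the restricted members, had 89.7% and 70.5% of their NASH UMIs in 1 cell. Of the Kupffer cell and macrophage list 3 of 11 were higher in the restricted members and 8 of 15 by the rule, with 0 lower. Among scavenger and endocytic receptors 1 of 15 was higher in the restricted members and 0 of 15 by the rule, with 0 lower. Among antigen presentation genes 0 of 19 and among flow-responsive genes 0 of 16 were called either way, and by the rule 1 of 25 was higher and 1 of 16 lower. These counts of the restricted members stand beside the same 1.64% higher and 2% lower over all genes.

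**Figure D3:**
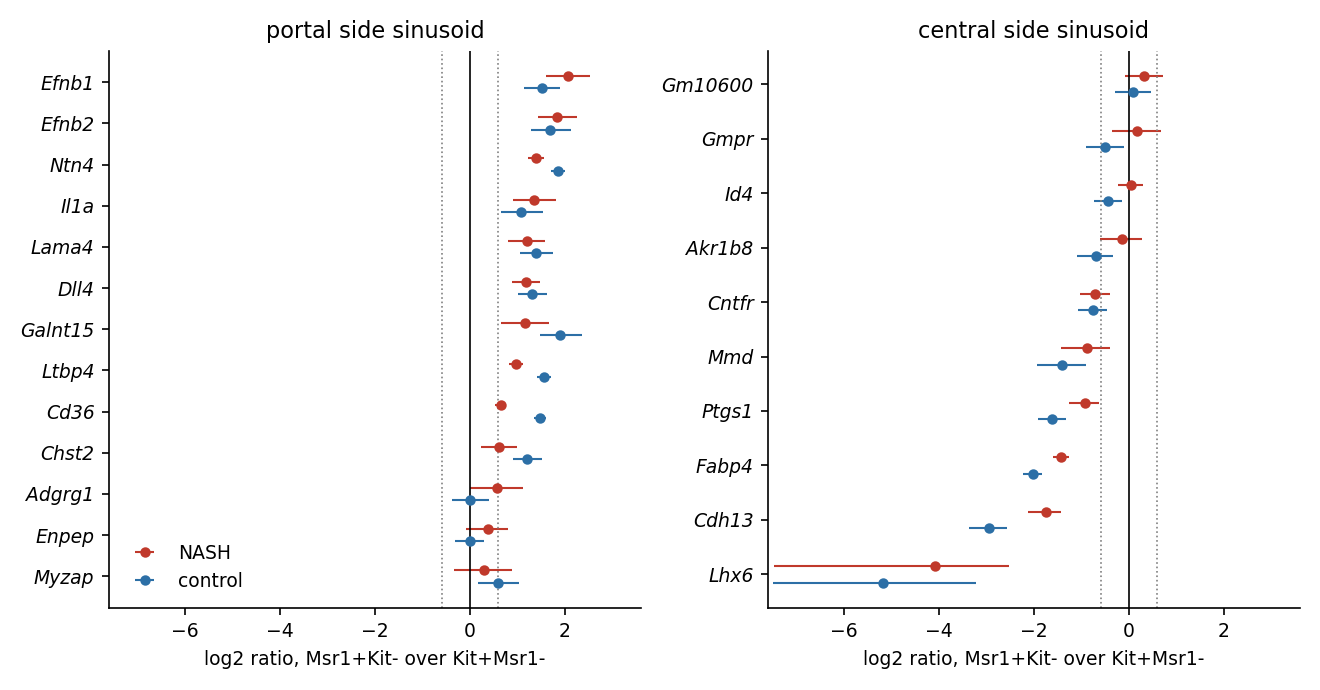
Log2 ratio of *Msr1*+*Kit*- over *Kit*+*Msr1*- cells (horizontal axis) for the measured genes listed for the portal (left) and central side of the sinusoid (right), in NASH (red) and control (blue), with 95% counting intervals and dotted lines at 1.5 times. Of the portal genes 10 of 13 lie past the line in both libraries and of the central genes 6 of 10 on the other side, and the lower ends for *Lhx6* are cut at the edge.

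Genes lower in *Msr1*+*Kit*- than in *Kit*+*Msr1*- cells included those listed for the central side, of which 6 of 10 were lower and 0 higher in the restricted members and by the rule, beside 2% and 2.57% of all genes lower, a list that was also mostly chosen on these samples. *Lhx6*, a LIM homeobox transcription factor, had 2 UMIs in the 228 NASH and 1 in the 311 control restricted members, against 142 (117 to 172) and 92.7 (71.9 to 118) CPM in *Kit*+*Msr1*- cells. *Cdh13*, which encodes T-cadherin, was at 262 (207 to 327) CPM in *Msr1*+*Kit*- and 889 (824 to 958) CPM in *Kit*+*Msr1*- cells in NASH and 98.5 (74.6 to 128) and 765 (703 to 832) CPM in control. *Fabp4*, a fatty acid binding protein, was at 1202 (1080.3 to 1333) and 3239 (3113 to 3368) CPM in NASH and 415 (364 to 471) and 1687 (1594 to 1785) CPM in control. *Ptgs1*, cyclooxygenase-1, had ratios of -0.93 in NASH and -1.61 in control, *Cntfr* of -0.70 in NASH and -0.76 in control and *Mmd* of -0.89 in NASH and -1.4 in control. Of 6 measured marker genes of the published *Kit* cluster, which were chosen on these samples, 2 were lower (*Cntfr* and *Mmd*), while *Id4*, *Gmpr*, *Akr1b8* and *Gm10600* were not called.

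The other leading lower genes were *Plppr5*, *Plau*, *Ifitm10*, *Lfng*, *Jup* and *Olfm1* and the haemoglobin genes *Hbb-bt*, *Hbb-bs* and *Hba-a1*. *Plau*, the urokinase plasminogen activator, had ratios of -2.14 in NASH and -2.36 in control, *Jup*, a plaque protein of cell junctions, of -1.61 in NASH and -2.40 in control, and *Olfm1*, a secreted olfactomedin, of -1.49 in NASH and -1.69 in control. By the rule *Plau* was at -0.26 in NASH. Haemoglobin counts rested on few cells, with 97.2% of *Hbb-bt* UMIs of control *Kit*+*Msr1*- cells in 1 cell and 45.1% of those of NASH, and in cells with no UMI of 9 macrophage genes the control ratios of *Hba-a1* and *Hbb-bs* were 1.01 and 0.26. *Plvap*, the protein of fenestral and caveolar diaphragms, was also lower, at 403 (334 to 482) CPM in *Msr1*+*Kit*- and 879 (814 to 948) CPM in *Kit*+*Msr1*- cells in NASH and at 128 (100.4 to 161) and 589.7 (535 to 648) CPM in control.

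In the restricted members the distance between the classes was smaller in NASH for central side genes, while by the rule their median ratio was -1.04 in NASH and -0.86 in control, a larger distance in NASH. In 10 of 10 measured central genes the NASH ratio of the restricted members was less negative or more positive than the control ratio, with medians of -0.80 in NASH and -1.08 in control. *Cdh13* had ratios of -1.76 (-2.12 to -1.42) in NASH and -2.95 (-3.38 to -2.56) in control, with intervals apart, and *Fabp4* of -1.43 (-1.59 to -1.27) in NASH and -2.02 (-2.23 to -1.82) in control. Of the 13 portal genes 8 had a smaller ratio in NASH and 5 a larger one, with medians of 1.17 and 1.4, and by the rule their medians were 0.48 in NASH and 1.48 in control. The median depth of the restricted members was lower in NASH. With cells of at least 1000 UMIs thinned to that depth, the *Fabp4* ratios were -1.46 in NASH and -2.09 in control, and the *Cdh13* ratios -1.68 in NASH and -2.69 in control.

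Genes also varied with the amount of *Msr1* in *Kit*- sinusoidal cells with the 7 genes at 1% or more. *Efnb2* was at 199.9 CPM in NASH cells without a *Msr1* UMI, 309 with 1, 607 with 2 and 470.3 with 3 or more, and at 168, 277, 335 and 321 CPM in control. *Ntn4* was higher at each step, at 1319, 1569.6, 2545 and 2680.5 CPM in NASH and 1231, 2003, 2236 and 3007 CPM in control. *Cdh13* ran the opposite way, at 547, 309, 275 and 125 CPM in NASH and 291, 127, 134 and 62.7 CPM in control. *Enpep* showed no such run, at 197, 248, 188 and 172 CPM in NASH, where the intervals of all 4 steps overlapped. The cells with 3 or more numbered 38 in NASH and 114 in control and were deeper, with medians of 1481.5 and 2066.5 UMIs against 1002 and 1072 in cells without. At 1000 UMIs in every cell *Ntn4* was at 1168, 1670.2, 2815 and 3588 CPM in NASH, from 17 cells in the last step. *Efnb2* was then at 184, 340, 370 and 529 CPM in NASH and 149, 344, 403 and 250 CPM in control. In control its last step, 250 (137 to 419) CPM, overlapped the 149 (108 to 201) CPM of cells without *Msr1*. The same held there for *Dll4*, at 321 (190 to 508) and 236 (183 to 299) CPM.

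**Figure D4:**
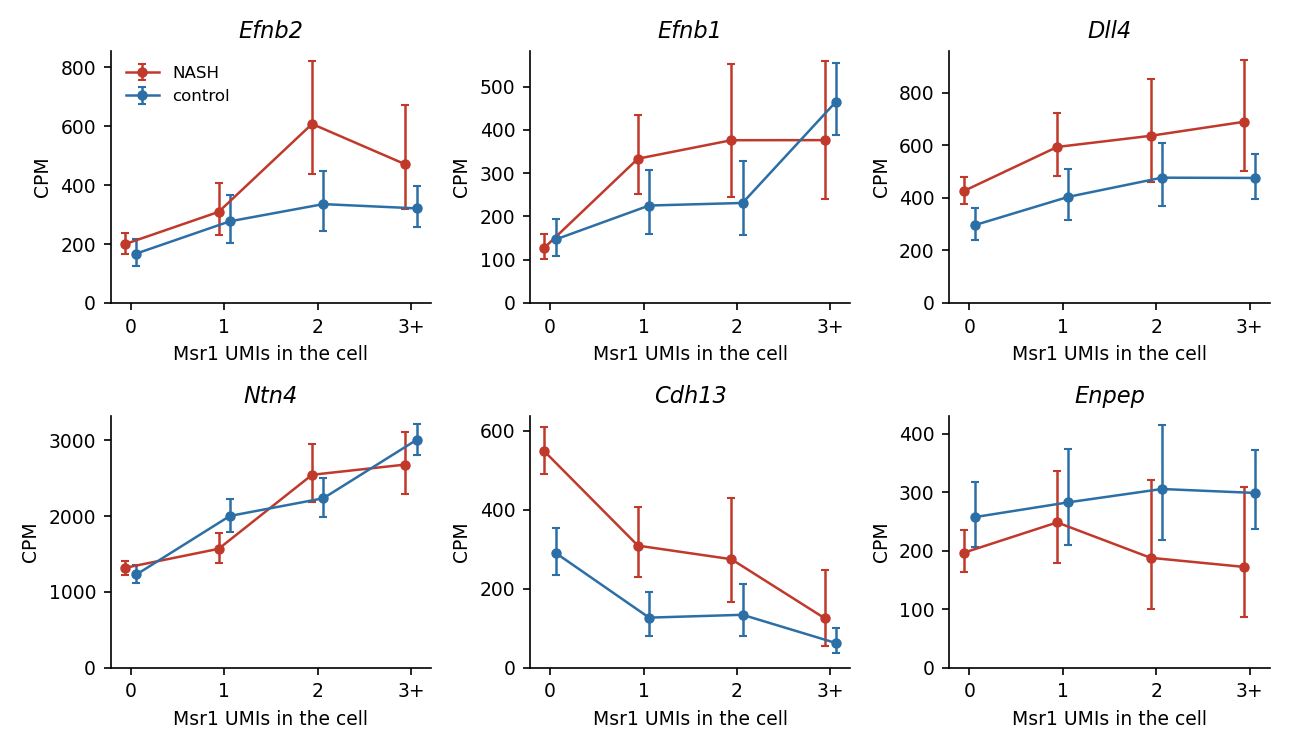
Level in CPM (vertical axis, starting at 0) of 6 genes by the number of *Msr1* UMIs in the cell (horizontal axis) in *Kit*- sinusoidal cells with the 7 genes at 1% or more, in NASH (red) and control (blue), with exact Poisson 95% intervals. *Efnb2*, *Efnb1*, *Dll4* and *Ntn4* are higher with *Msr1* than without, *Cdh13* is lower, and the intervals of *Enpep* overlap at all steps of a library.

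A minority of single cells showed at least 3 of these genes at once. Of the 6 genes *Efnb2*, *Dll4*, *Chst2*, *Enpep*, *Efnb1* and *Lama4*, at least 3 were detected at 1000 UMIs in 37 of 140 NASH restricted members (26.4%) and 68 of 249 control ones (27.3%), the rest being shallower. In *Kit*+*Msr1*- cells the counts were 17 of 362 (4.70%) and 19 of 306 (6.21%), and in cells with neither receptor 19 of 267 (7.12%) and 13 of 140 (9.29%). None of the 6 was seen in 14.3% of the NASH and 16.1% of the control members, against 44.5% and 36.3% of the *Kit*+*Msr1*- cells. At this depth a gene without a UMI may still be expressed in the cell. All 6 genes were named from these cells or are published *Msr1* cluster markers, so the contrast between classes is a description only.

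Between diets, 243 of 3244 genes (7.49%) were at 1.5 times or more in NASH and 244 (7.52%) at as much or more in control, counted where the restricted members of the libraries held 50 UMIs or more together. The interval lay on one side of 0 for 187 of the higher and 160 of the lower genes. By the rule, 612 of 4131 (14.8%) were higher and 729 (17.6%) lower, and the sets shared 60 higher and 135 lower genes. With the rule's ratios centred on their median, which was -0.073, the split was 691 higher and 600 lower. The rule's leading higher genes were *Gpnmb*, *Ccl3*, *Gdf3*, *F10*, *Ccl9*, *Lgals3*, *H2-M2*, *Chil3*, *Igf1*, *Rab7b*, *Cd14* and *Lyz2*, which include macrophage genes such as the lipopolysaccharide co-receptor *Cd14*. *Gdf3* was at 137 CPM in NASH with no UMI in control, at least 28.7-fold higher, and *H2-M2* at least 18.2-fold higher at 3 UMIs in place of 0. Without the cells under 1%, *Gpnmb* had 6 UMIs in NASH and 0 in control, and *Ccl3*, *Gdf3*, *F10*, *H2-M2* and *Rab7b* had 0 or 1 in each library. Of the 22 macrophage list genes 16 of 18 measured were higher and 1 lower by the rule, and 1 of 11 higher and 0 lower with the restricted members.

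In the restricted members the leading higher genes in NASH were *Ctgf*, *Fabp4*, *Plvap*, *Inhbb*, *Arrdc3*, *Cdh13*, *Csprs*, *Cyp26b1*, *Hspa1b*, *Mat2a*, *Bmper* and *Camk2n1*. *Ctgf*, a matricellular protein of fibrosis, was at 581 (497 to 674) CPM in NASH and 98.5 (74.6 to 128) CPM in control members, a log2 ratio of 2.55 (2.12 to 3.02). In *Kit*+*Msr1*- cells it was at 588 (535 to 644) and 67.8 (50.2 to 89.7) CPM, a ratio of 3.10 (2.69 to 3.57), so *Ctgf* was higher in both classes. *Fabp4* was at 1202 (1080.3 to 1333) CPM in NASH and 415 (364 to 471) CPM in control members, with ratios of 1.53 (1.29 to 1.78) in *Msr1*+*Kit*- and 0.94 (0.84 to 1.04) in *Kit*+*Msr1*- cells. *Plvap* was at 403 (334 to 482) CPM in NASH and 128 (100.4 to 161) CPM in control members, with ratios of 1.65 (1.22 to 2.09) and 0.58 (0.40 to 0.75), and *Cdh13* had 1.41 (0.90 to 1.93) and 0.22 (0.053 to 0.38). For these 3 genes the ratio in *Msr1*+*Kit*- cells lay above that in *Kit*+*Msr1*- cells with intervals apart, a difference that was not tested.

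*Inhbb*, the activin beta-B subunit, was at 232 (180.2 to 293) CPM in NASH and 70.9 (50.9 to 96.1) CPM in control members, and *Bmper*, a secreted regulator of bone morphogenetic proteins, at 114 (79.0 to 159) CPM in NASH and 36.3 (22.5 to 55.5) CPM in control members. *Id4*, an inhibitor of helix-loop-helix factors, was at 584 (500.4 to 677) CPM in NASH and 271 (231 to 317) CPM in control members, a ratio of 1.11 (0.79 to 1.43). *Mat2a*, which makes S-adenosylmethionine from methionine, the amino acid that the diet lacks, was at 326 (264 to 397) CPM in NASH and 135 (107 to 168) CPM in control members, with ratios of 1.27 (0.83 to 1.72) in *Msr1*+*Kit*- and 0.77 (0.42 to 1.13) in *Kit*+*Msr1*- cells. *Cyp26b1*, which degrades retinoic acid, was at 3742 (3526 to 3968) CPM in NASH and 1929 (1818 to 2046) CPM in control members, with ratios of 0.96 (0.83 to 1.08) and 1.02 (0.94 to 1.10). *Hspa1b*, a heat shock chaperone, had a ratio of 1.38 (0.83 to 1.95), with 34.7% of its control UMIs in 1 cell. *Lyve1*, a hyaluronan receptor of sinusoidal and lymphatic endothelium, was at 1628 (1486 to 1779) CPM in NASH and 1016 (936 to 1102) CPM in control members, a ratio of 0.68 (0.50 to 0.86), and of 0.35 with at least 2 *Msr1* UMIs, and 1.04 (0.89 to 1.2) in *Kit*+*Msr1*- cells. *Nrarp* was also higher, with 1.21 (0.66 to 1.77) in *Msr1*+*Kit*- and 1.30 (0.74 to 1.92) in *Kit*+*Msr1*- cells.

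Of the 12 leading genes of the *Msr1*+*Kit*- class over *Kit*+*Msr1*- cells, 11 were under 1.5 times either way between the diets and 1, *Mbd4*, was higher in NASH. *Mbd4* was at 158 (116 to 209.8) CPM in NASH and 84.7 (62.7 to 112) CPM in control members, a ratio of 0.90 (0.29 to 1.5), beside 0.76 (0.029 to 1.56) in *Kit*+*Msr1*- cells and 0.10 by the rule. *Efnb2* had a ratio of NASH over control of 0.41 (0.065 to 0.75), *Dll4* of 0.46 (0.18 to 0.73), *Efnb1* of 0.060 (-0.30 to 0.41) and *Lama4* of -0.092 (-0.44 to 0.24), none at 1.5 times. *Chst2* was at -0.54 (-0.90 to -0.20), *Galnt15* at -0.54 (-0.97 to -0.13) and *Enpep* at -0.43 (-0.87 to -0.018), all short of the limit with intervals below 0. By the rule, the ratios were -0.46 for *Efnb2*, -0.37 for *Dll4*, -0.82 for *Efnb1*, -0.96 for *Lama4*, -1.35 for *Chst2*, -1.38 for *Galnt15* and -1.29 for *Enpep*, so that the sign of *Efnb2*, *Dll4* and *Efnb1* turned with the macrophage-rich cells. Of the 13 portal side genes 0 were higher and 1, *Myzap*, was lower in NASH in the restricted members, with a median of -0.092, where 7.49% of all genes were higher and 7.52% lower. By the rule 0 of the 13 were higher and 9 lower, with a median of -0.96, beside 14.8% and 17.6% of all genes. Of 9 central side genes 5 were higher and 0 lower in the restricted members, beside the same 7.49% and 7.52%, with a median of 0.67 beside 0.0042 over all genes and 0.29 for the list in *Kit*+*Msr1*- cells. By the rule 2 of the 9 were higher and 1 lower, with a median of 0.15. The 5 were *Cdh13*, *Fabp4*, *Ptgs1*, *Id4* and *Mmd*, with *Ptgs1* at 0.67 (0.28 to 1.05) and 0.52 with at least 2 *Msr1* UMIs.

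**Figure D5:**
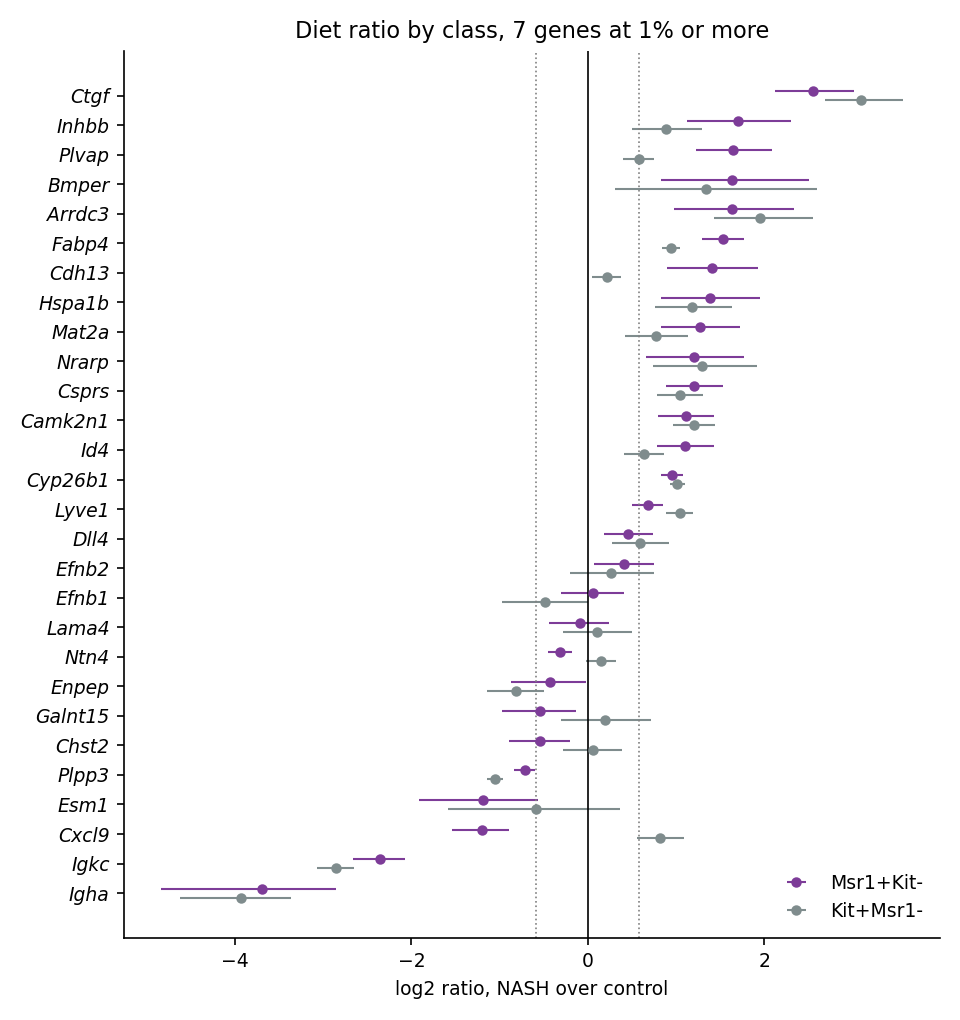
Log2 ratio of NASH over control (horizontal axis) of 28 named genes in *Msr1*+*Kit*- (purple) and *Kit*+*Msr1*- cells (grey) with the 7 genes at 1% or more, with 95% counting intervals and dotted lines at 1.5 times. *Ctgf* leads in both classes, *Cdh13* and *Plvap* are further right in *Msr1*+*Kit*- cells, and *Efnb1* and *Lama4* lie near 0.

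Immunoglobulin genes led the lower side. *Ighg2b* had no UMI in NASH members and 194 (159 to 233) CPM in control, at least 19.2-fold lower at 3 UMIs in place of 0. *Igha* was at 33.6 (16.1 to 61.7) CPM in NASH and 455 (401 to 513) CPM in control members and *Igkc* at 356 (291 to 430.3) CPM in NASH and 1829 (1720.3 to 1942) CPM in control members. *Igha* was at 31.1 (19.9 to 46.2) and 483 (434 to 537) CPM in *Kit*+*Msr1*- cells, 25.7 (12.3 to 47.2) and 497 (449 to 548) CPM in Kupffer cells and 2294 (2098 to 2503) and 39623 (39252 to 39997) CPM in B cells, so that it was lower in NASH in every class. At 1000 UMIs *Igha* was found in 36.1% of control members, 36.9% of control *Kit*+*Msr1*- cells and 36.6% of control B cells. The shares were alike although the levels were not, and the source of these UMIs was not tested. *Il1b*, *Procr*, *Gbp2*, *Cd52* and *Cxcl9* also led the lower side, with a large part of the UMIs of each in a single control cell. In control members 1 cell held 59.2% of the *Il1b*, 84.9% of the *Procr*, 36% of the *Gbp2*, 49.7% of the *Cd52* and 23.4% of the *Cxcl9* UMIs. *Hs1bp3*, also a leading lower gene, was spread wider, with at most 6% of its control UMIs in 1 of 37 cells. It had 3 UMIs in NASH and 50 in control members, a ratio of -2.89 (-5.43 to -1.47), beside -0.63 (-1.34 to 0.058) in *Kit*+*Msr1*- cells. *Cxcl9*, a chemokine ligand of CXCR3, was found in 54 NASH and 105 control members and was at 329 (267 to 401) CPM in NASH and 761 (691 to 835) CPM in control members, a ratio of -1.2 (-1.54 to -0.89). In *Kit*+*Msr1*- cells *Cxcl9* was higher in NASH, with a ratio of 0.82 (0.56 to 1.10). *Il1b*, the cytokine interleukin-1 beta, was likewise higher in NASH in *Kit*+*Msr1*- cells, with a ratio of 1.86 (1.21 to 2.62), and 1 cell held 49.5% of its UMIs there. The difference between the classes was not tested.

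Lower genes outside the leading 12 included *Plpp3*, a phosphatase of lysophosphatidic acid and related lipids, at 2601 (2421 to 2791) CPM in NASH and 4273 (4106 to 4445) CPM in control members, with ratios of -0.72 (-0.83 to -0.60) in *Msr1*+*Kit*- and -1.05 (-1.14 to -0.96) in *Kit*+*Msr1*- cells. *Esm1*, the secreted proteoglycan endocan, was at 80.5 (51.6 to 119.9) CPM in NASH and 187 (153 to 225) CPM in control members, a ratio of -1.19 (-1.92 to -0.56), from UMIs in 11 NASH and 35 control cells. *Csf1*, the macrophage growth factor, was at 124 (87.4 to 171) CPM in NASH and 292 (249.7 to 339.6) CPM in control members, and *Podxl*, a sialomucin of the luminal membrane, at 175 (130.3 to 229) CPM in NASH and 358 (311 to 410.0) CPM in control members. *Esm1* was higher in *Msr1*+*Kit*- than in *Kit*+*Msr1*- cells in both libraries (1.86 (0.92 to 2.86) in NASH and 2.47 (1.84 to 3.19) in control), but had under 50 UMIs in one library's pair of classes and was not counted.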

How the data were processed

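Single-cell libraries of liver nonparenchymal cells were made on the BD Rhapsody platform from 3 pooled mice per diet, and the deposited tables hold counts of UMIs per cell and gene, which the authors made with the BD pipeline on build GRCm38. The version of the annotation was not given in the sources used. The deposited counts were used without normalization. They run alphabetically up to *Rad54l2*, and later genes were not analysed here. The NASH columns took their names from the order of the control header. The members and gene lists were chosen with earlier results of these data known.

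Cells with at least 500 UMIs and 200 genes were kept. Members followed the rule in the opening. Doublets were kept. Scrublet, run through scanpy 1.11.5, marked 3 NASH cells (0.0809%), too few to count as working there, and 52 control cells (1.24%), among them 0 NASH and 4 control members.

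UMIs were summed over cells, since cells are not replicates, and divided by their total to give CPM. Levels have exact Poisson and shares exact Clopper-Pearson intervals at 95%. Ratios were computed with 0.5 UMI added, and their intervals come from the exact binomial share of the summed UMIs. A gene was measured with at least 50 UMIs over the classes compared and called at 1.5 times or more. A gene at 0 was set to 3 UMIs over the class for a bound. With 1 library per diet no test was run. The named genes are those of the rule and of the study's clusters, the 12 leading calls each way, and, from every list, at most 4 genes by the size of their ratio, and any others were chosen after their values were seen. The ratios were ranked by the smaller of both libraries, and the diet ratios by the interval bound nearest 0. Alternatives changed the limits on *Msr1*, the 7 genes, macrophage genes, doublets, depth and the gene minimum, the UMIs added, the centring and the weighting of cells. The scripts were tested on simulated data. Coordinates are from GENCODE M21 on GRCm38. Python 3.11.15, numpy 2.4.6, scipy 1.17.1 and pandas 2.3.3 were used.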

Additional observations from a re-analysis of the deposited data

How the results depend on the processing

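The share of *Msr1*+*Kit*- cells among sinusoidal cells was lower in NASH under every alternative run, at 8.81% in NASH and 15.9% in control with at least 2 *Msr1* UMIs and 14.3% and 29.5% with cells thinned to 1000 UMIs. For the restricted members these were 6.89% and 16.3% and 14.4% and 29.9%. Counts of genes moved more. They are given as higher and lower in *Msr1*+*Kit*- than in *Kit*+*Msr1*- cells, then higher and lower in NASH. Thinning gave 26, 46, 156 and 147, a gene minimum of 20 UMIs 139, 218, 1019 and 1144, and one of 200 UMIs 21, 36, 187 and 242, where the number of genes tested changes by construction. Cells with no UMI of 9 macrophage genes gave 12, 19, 88 and 118, and those with at least 6 UMIs over the 7 genes 389 and 377 between diets. Cells with no UMI of *Clec4f* or *Cd5l* gave 39 and 70 between classes. The mean of per-cell CPM gave 383 lower in NASH. The limit of 1% gave 72 lower between classes and 243 and 244 between diets. For the restricted members thinning gave 27, 42, 150 and 139, and no UMI of 9 macrophage genes 13, 16, 79 and 113.

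Of 915 called values recomputed for the rule, 873 were still called, and of 524 for the restricted members 504. Signs turned in 12 cases. By the rule, the NASH over control ratio of *Efnb1* was 0.061 when thinned, 0.10 as a mean of per-cell CPM and 0.060 at 1%, while *Galnt15* and *Lama4* were at 0.092 and 0.17 when thinned. The class ratio of *C1qb* in control was -0.050 when thinned, and those of *Axl* and *Id4* in NASH were -0.057 and 0.038 at 1%. In the restricted members *Cybb* in control was at -0.93 at 1.5%, and with no UMI of 9 macrophage genes *Hba-a1* and *Hbb-bs* in control were at 1.01 and 0.26 and *Hes1* in NASH at -0.096. Apart from the number of genes tested, the cause was not tested. The limits on the 7 genes and their combinations and the 5% highest Scrublet scores were chosen after seeing the data. No paired analysis was possible because each diet has 1 library. Differences between diets cannot be told apart from differences between the libraries or the pools of mice.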

Other observations

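Several other gene groups were counted in the restricted members with the diet, beside 7.49% higher and 7.52% lower over all genes. Of 45 oxidative phosphorylation genes 1 was higher and 5 were lower in NASH, and of 34 lysosome genes 1 was higher and 4 were lower. Of 24 interferon-stimulated genes 2 were higher and 4 lower, and of 19 immediate early genes 4 were higher and 1 was lower. Of 9 genes of methionine and choline metabolism 3 were higher and 1 was lower. By the rule, which keeps the macrophage-rich cells, 14.8% of all genes were higher and 17.6% lower in NASH. For oxidative phosphorylation and lysosome genes the counts were then 0 higher and 1 lower of 49 and 19 higher and 5 lower of 37. Of 27 interferon-stimulated genes 3 were higher and 5 lower, and of 22 immediate early genes 16 were higher and 0 lower. Of 13 methionine and choline genes 3 were higher and 0 lower.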
